A study of Mus musculus with 8 samples.

Results

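The genes described here are 10 myeloid genes, 5 that encode neutrophil granule proteins (Mpo, Elane, Prtn3, Ctsg and Lyz2), the membrane protein gene Ms4a3, the receptor gene Csf3r, and the regulators Cebpa, Cebpe and Gfi1. They were taken by symbol from the 52636 genes of a count table of mouse fetal liver S0 cells, after dropping the version from each gene identifier, and all 10 are among the 17378 genes with enough counts to be tested. They were chosen by the values reported here, since their counts in these same WT and DKO libraries were known when they were listed. Their difference between the genotypes is therefore described with its error and is not tested.

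S0 cells are the least mature subset that the CD71 and Ter119 antibodies separate in the fetal liver. They were sorted at E12.5 after cells stained for CD3e, CD4, CD8a, CD45R/B220, CD127, CD11b or Ly6G/Ly6C had been gated out, and polyA RNA was copied by template switching from low input. There are 4 libraries labelled wild type (WT) and 4 labelled DKO, all on a C57BL/6J background. DKO embryos lacked Vps13a (the tm1d allele, with exon 6 removed through a β-actin-Cre that acts in all tissues) and Vps13c (Vps13c-/-), 2 genes for lipid transfer proteins, and came from intercrosses of Vps13a+/-/Vps13c-/- mice. All offspring of such a cross lack Vps13c, so the WT libraries came from other litters, which the labels do not describe. Litter and genotype therefore cannot be told apart. The labels do not say whether each library is a separate embryo, so the errors given measure the spread between these libraries.

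Neutrophils develop from progenitors shared with monocytes. The proteins of the primary (azurophil) granules, among them myeloperoxidase and a family of serine proteases, are made early, at the promyelocyte stage, and the proteins of the secondary and tertiary granules only later. C/EBPα opens the granulocyte and monocyte program, GFI1 and C/EBPε act on the granulocyte branch, PU.1 acts in both branches, and the receptor for G-CSF carries the signal for neutrophil production. In the fetal liver these cells arise beside the far more numerous red cell precursors.

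Deposited whole-number counts summed to 42114489 to 50886469 per WT library and 36981439 to 42587815 per DKO library. Values below are normalized counts, that is, each count scaled to a common depth by the library total and edgeR's TMM factor, with the mean of the 8 libraries as that depth. Vps13a was lower in DKO (log2 fold change -1.29, SE 0.17, edgeR adjusted p = 0.00247), whereas Vps13c counted over the whole gene was not called (0.49, SE 0.24), so that it does not check the labels. DKO replicate 1 stood apart for these genes, with the lowest level of the 4 DKO libraries for 10 of the 10. The DKO libraries also differed from WT in the sex-linked RNAs. WT libraries held 0 to 30.1 normalized counts of Xist, against 27043, 18029, 62.3 and 21393 in DKO replicates 1 to 4, and Ddx3y had 2911 to 3354 in WT against 41.0, 10.5, 2516 and 9.40 in DKO. The fold changes of the 10 genes and the correlations are also given without DKO replicate 1, and DKO replicate 3, which like WT had Ddx3y and little Xist, was also set against WT alone. The part of sex in the other differences was not tested.

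The 5 granule protein genes, listed with these values known, had lower levels in every DKO library than in any WT library. So did 14.6% of all genes tested. Upstream sequence was searched after this was seen. Windows of 250 bases before the RefSeq start (GRCm38.p6) were found for 9 of the 10 genes. The motif AGGAAGT, a form of the PU.1 site, lay on either strand in 5 of these 9 genes, the 5 granule protein genes, and in 7.69% of all 32851 windows. Each stretch is printed 5′ to 3′ on the strand of its gene, with the motif or, for Lyz2, its reverse complement in capitals.

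Mpo, chr11:87793549-87793578, plus strand: gtggagagagagAGGAAGTtgcctttgtcc

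Elane, chr10:79886216-79886245, plus strand: cgtgtcccagggAGGAAGTagggctgtggc

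Prtn3, chr10:79879561-79879590, plus strand: caaactggaaggAGGAAGTgggacccacag

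Ctsg, chr14:56102763-56102792, minus strand: gagaggaagaaaAGGAAGTagtcacctgtt

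Lyz2, chr10:117282355-117282384, minus strand: agatcggtaggaACTTCCTgttttgcacac

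The motif lay 78 to 84 bases before the RefSeq start of Elane, 88 to 94 before that of Prtn3, 94 to 100 before that of Lyz2, 200 to 206 before that of Ctsg and 217 to 223 before that of Mpo. The stretch of Prtn3 lies inside the longer gene model of GENCODE, but none of the 5 stretches overlaps an annotated exon. The RefSeq starts of Mpo, Elane and Lyz2 also lie inside their GENCODE models. Their motifs are therefore closer to the GENCODE starts than the distances given. The other 3 motifs searched, on both strands, were TTNNGNAA (C/EBP), TAACNG (MYB) and AAATCA (GFI1). TTNNGNAA was found in Lyz2, Ms4a3 and Gfi1 and in 36.9% of all windows, TAACNG in Mpo and Elane and in 19.8%, and AAATCA in 0 of the 9 genes and in 12.4%. The TAACNG matches of Mpo and Elane and the TTNNGNAA match of Gfi1 lay past the GENCODE starts of these genes. The TTNNGNAA match of Lyz2 spanned the GENCODE start of that gene. No match of one motif overlapped a match of another. These matches describe letters in the reference and no binding was measured.

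Compared with WT, DKO S0 cells had lower levels of Mpo, Elane, Ctsg, Lyz2 and Csf3r, with log2 fold changes from -2.24 to -1.51, and for these 5 genes and Prtn3 no DKO library reached the lowest WT library. Ms4a3, Cebpa, Cebpe and Gfi1 had ranges that overlapped. By the criterion used throughout for a call, an edgeR adjusted p under 0.05 over all genes tested and a log2 fold change beyond 1, 5 of the 10 genes were called lower and 0 higher, where 2.43% of all genes tested were called lower and 6.19% higher. The same 5 passed the adjusted p alone, as did 10.8% of all genes tested in the lower direction. Non-overlapping libraries with DKO lower were seen for 6 of the 10 and for 14.6% of all genes tested. The number called lower fell to 2 without WT replicate 1 or WT replicate 4 and to 3 without WT replicate 2 or DKO replicate 2, 3 or 4, with calls of Elane, Ctsg or Csf3r lost. Since the genes were listed with this contrast known, nothing is read from these counts. Their median log2 fold change was -1.30, and that of all genes tested was 0.03. In bulk RNA, fewer cells of a type and less RNA per cell cannot be told apart.

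**Figure D1:**
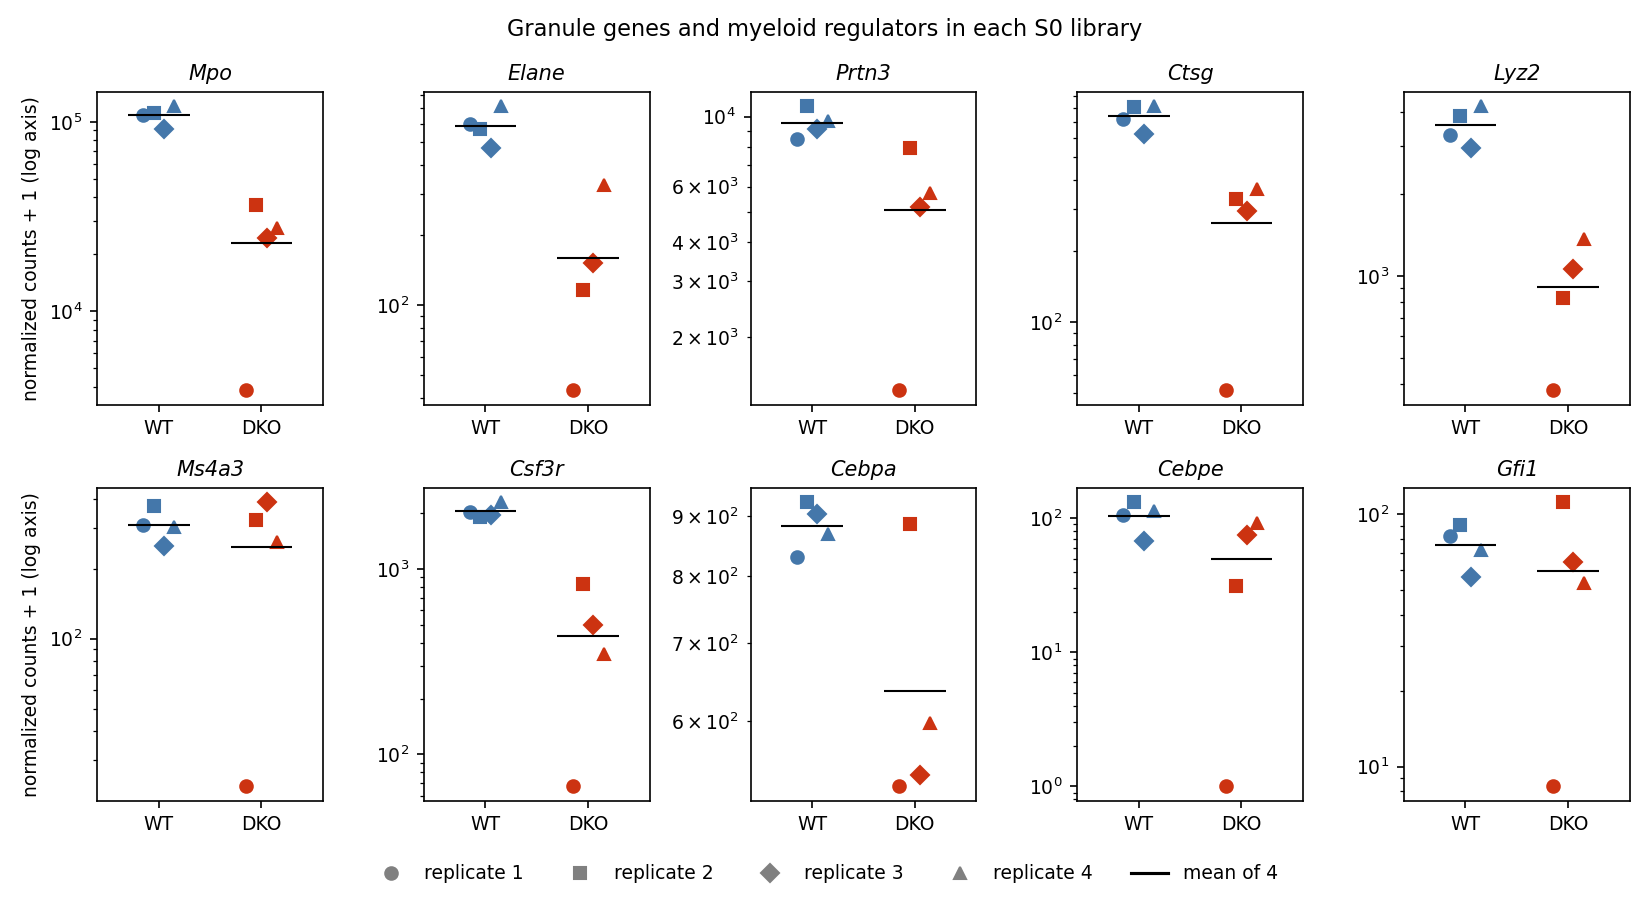
Normalized counts plus 1 of the 10 genes in each library, on a log axis of its own for each gene (points: WT in blue, DKO in red, one symbol per replicate number; line: mean of the 4 libraries). All DKO points lie below all WT points for Mpo, Elane, Prtn3, Ctsg, Lyz2 and Csf3r, and DKO replicate 1 is the lowest point for each of the 10 genes.

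Mpo (ENSMUSG00000009350.13, chr11:87793581-87804413 of GRCm38, plus strand) encodes myeloperoxidase, the heme enzyme of the azurophil granule that makes hypochlorous acid. It had 109156, 111349, 91281 and 120802 normalized counts in WT replicates 1 to 4 and 3829, 36256, 24386 and 27519.7 in DKO replicates 1 to 4. The highest DKO library was thus far below the lowest WT library, and DKO replicate 1 lay well under the other DKO libraries. The WT mean was 108147 ± 12328 and the DKO mean 22998 ± 13731 (SD, n = 4 libraries), which gave -2.23 (SE 0.52) as log2 fold change. Without DKO replicate 1 it was -1.87, and with DKO replicate 3 as the only DKO library it was -2.17. By mean normalized count Mpo ranked 19 of the genes tested in WT and 248 in DKO.

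The 3 serine protease genes differed in how far they were below WT. Elane (ENSMUSG00000020125.7, chr10:79886247-79888215, plus strand) encodes neutrophil elastase. It had 599, 569.7, 470.0 and 714 normalized counts in WT replicates 1 to 4 and 42.0, 115, 151 and 328 in DKO replicates 1 to 4. The spread among the DKO libraries was wide, with DKO replicate 4 at 55.8% of the WT mean and DKO replicate 1 at 7.14%. On average it was at 588 ± 101 in WT against 159 ± 121 in DKO, and its log2 fold change was -1.88 (SE 0.50), or -1.56 without DKO replicate 1.

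Prtn3 (ENSMUSG00000057729.12, chr10:79874476-79883174, plus strand) encodes proteinase 3 and lies next to Elane, 3072 bases upstream of it. It had 8469.8, 10791, 9130.1 and 9694 normalized counts in WT against 1351, 7955, 5159 and 5744 in DKO, in the order of replicates 1 to 4. DKO replicate 2 came close to the lowest WT library, at 83.6% of the WT mean, and no library crossed over. With means of 9521 ± 983 and 5052 ± 2746, the log2 fold change was -0.91 (SE 0.40), the smallest of the 5 granule protein genes, and it was -0.60 without DKO replicate 1.

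Ctsg (ENSMUSG00000040314.2, chr14:56099881-56102574, minus strand) encodes cathepsin G, a protease of the same family. The WT libraries had 723, 807, 619 and 816 normalized counts and the DKO libraries 50.4, 331, 294 and 366. Apart from DKO replicate 1 the DKO libraries lay close together, between 39.7% and 49.3% of the WT mean. The means were 741 ± 91.5 and 260 ± 143 (SD, n = 4 each), and its log2 fold change was -1.51 (SE 0.48) with all libraries and -1.16 without DKO replicate 1.

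Lyz2 (ENSMUSG00000069516.8, chr10:117277331-117282321, minus strand) encodes the lysozyme of myeloid cells. It had 3313, 3889, 2957 and 4217 normalized counts in WT replicates 1 to 4 and 377, 831, 1062 and 1369 in DKO replicates 1 to 4. Even the highest DKO library was at 38.1% of the WT mean. From means of 3594 ± 566 and 909.8 ± 418 the log2 fold change was -1.98 (SE 0.33), the most precise of the granule protein genes, and it was -1.72 without DKO replicate 1 and -1.78 for DKO replicate 3 alone. Its close copy Lyz1, whose transcript is 92.0% identical to that of Lyz2 with an identical run of up to 118 bases, had 0 counts in each of the 8 libraries, so that summing the 2 genes left the value of Lyz2 unchanged. A count of 0 allows up to 3 counts per library, or 2.58 to 3.66 normalized counts, and these limits cover counting error only. Reads from the identical part could have been lost by the mapping filter or given to either copy.

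Ms4a3 (ENSMUSG00000024681.11, chr19:11629496-11640851, minus strand) encodes a membrane protein of granulocyte and monocyte progenitors. In WT it had 310.0, 374, 251 and 302 normalized counts, and in DKO 22.1, 325, 387 and 261. Only DKO replicate 1 was below the WT libraries, and DKO replicate 3 was above all of them. The log2 fold change was -0.32 (SE 0.62), and without DKO replicate 1 its sign turned, to 0.07.

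Csf3r (ENSMUSG00000028859.14, chr4:126024550-126044440, plus strand) encodes the receptor for G-CSF. The study displayed genes of a hematopoietic cell lineage pathway from these samples, and its text does not say whether Csf3r is among them. The WT libraries lay close together, at 2036, 1911, 1962 and 2291 normalized counts, and the DKO libraries had 66.2, 824, 496 and 346. All DKO libraries were thus at 40.2% of the WT mean or less, and DKO replicate 1 was at 3.23%. The means, 2049.6 ± 169 for WT and 433 ± 316 for DKO, gave a log2 fold change of -2.24 (SE 0.55), which was -1.88 without DKO replicate 1.

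The 3 regulators were less far below WT. Cebpa (ENSMUSG00000034957.10, chr7:35119293-35121928, plus strand) encodes C/EBPα. It had 829, 924, 903 and 868 normalized counts in WT against 526, 885, 538 and 597 in DKO, where DKO replicate 2 lay within the WT range and the other DKO libraries below it. The log2 fold change from 881 ± 41.7 to 637 ± 168 was -0.47 (SE 0.18), and -0.38 without DKO replicate 1. Among the 10 genes Cebpa had the smallest spread in both genotypes, with a coefficient of variation of 4.73% in WT and 26.4% in DKO.

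Cebpe (ENSMUSG00000052435.6, chr14:54710360-54712174, minus strand) encodes C/EBPε, a factor for the later granule genes. Its normalized counts were 105, 131, 66.9 and 112 in WT against 0, 30.2, 74.5 and 90.9 in DKO, so that DKO replicates 3 and 4 were inside the WT range and DKO replicate 1 had no count, which allows up to 3.15 normalized counts there. The log2 fold change was -1.08 (SE 0.93) with all libraries and -0.67 without DKO replicate 1. Gfi1 (ENSMUSG00000029275.18, chr5:107716657-107726036, minus strand), the gene for a repressor that favours the granulocyte branch, had 80.6, 89.5, 55.6 and 70.8 in WT against 7.36, 110.4, 63.5 and 52.2 in DKO. DKO replicate 2 was above every WT library. The log2 fold change of Gfi1 was -0.35 (SE 0.63), and 0.03 without DKO replicate 1.

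**Figure D2:**
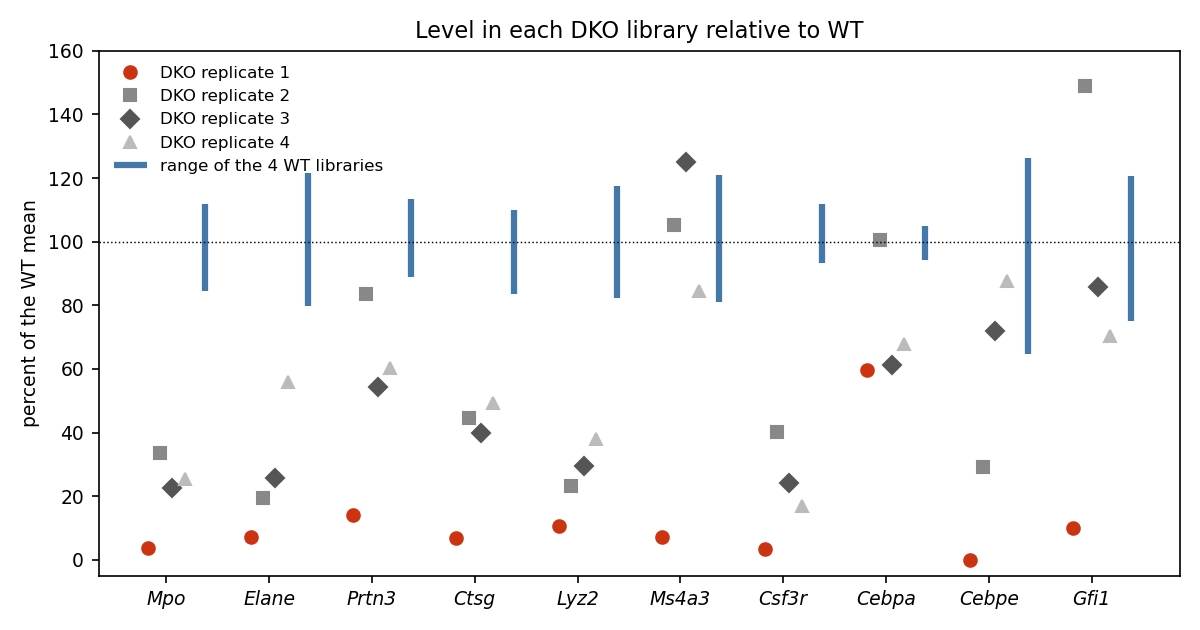
Level of each gene in each DKO library as a percent of the WT mean (points), beside the range of the 4 WT libraries (blue bars; dotted line: WT mean). DKO replicate 1 lies at or below 14.2% of the WT mean for 9 genes and at 59.7% for Cebpa. The other DKO libraries all reach or pass the lowest WT library for Ms4a3. For Cebpa only DKO replicate 2 does so, for Cebpe DKO replicates 3 and 4, and for Gfi1 DKO replicates 2 and 3.

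Leaving out DKO replicate 1 kept the non-overlap of the same 6 genes and turned the sign of Ms4a3 and Gfi1. Without it 5 genes were called lower, a number that omitting WT replicate 1, 2 or 4 or DKO replicate 2, 3 or 4 took to 2 or 3, and the log2 fold changes of Mpo, Elane, Ctsg, Lyz2 and Csf3r stayed beyond -1, at -1.87, -1.56, -1.16, -1.72 and -1.88. In DKO replicate 3 alone against WT, these 5 genes had log2 fold changes of -2.17, -1.97, -1.35, -1.78 and -2.07. In contrast, Ms4a3 was at 0.30 and Gfi1 at -0.24 in that library.

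**Figure D3:**
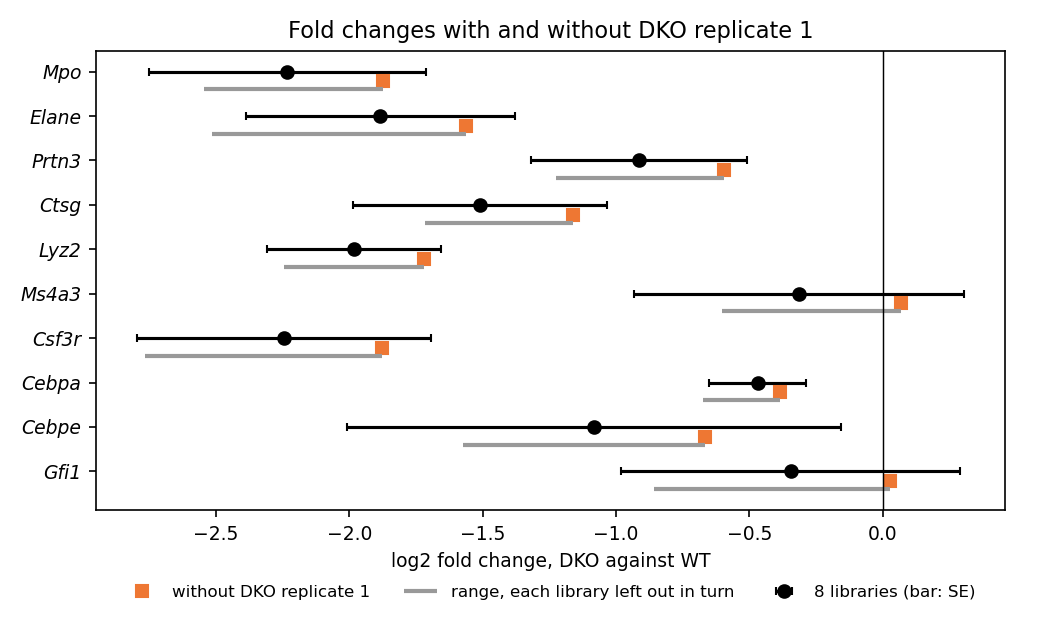
Log2 fold change, DKO against WT, of the 10 genes in the fit of all 8 libraries (black points; bars: SE), without DKO replicate 1 (orange squares) and over the fits that each left out 1 library (grey lines). Without DKO replicate 1 all values are higher, with -1.88 for Csf3r and -1.87 for Mpo, and those of Ms4a3 and Gfi1 pass 0.

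Levels of different genes were compared per length, as counts per kilobase of merged exons relative to the effective library size (the scale of RPKM). In WT the order was Mpo at 719 ± 82.0, Prtn3 at 125 ± 12.9, Lyz2 at 62.2 ± 9.79, Ctsg at 16.3 ± 2.02, Elane at 13.6 ± 2.33, Csf3r at 12.9 ± 1.06, Cebpa at 7.61 ± 0.36, Ms4a3 at 3.74 ± 0.61, Cebpe at 1.90 ± 0.49 and Gfi1 at 0.53 ± 0.10. Neighbours in this order were separated by more than their SD except for Ctsg, Elane and Csf3r. In DKO the level per length was 153 ± 91.3 for Mpo, 66.4 ± 36.1 for Prtn3, 15.7 ± 7.23 for Lyz2, 5.74 ± 3.15 for Ctsg, 5.50 ± 1.45 for Cebpa, 3.68 ± 2.81 for Elane, 3.01 ± 1.93 for Ms4a3, 2.73 ± 1.99 for Csf3r, 0.90 ± 0.76 for Cebpe and 0.42 ± 0.30 for Gfi1. There the spread was so large that only Prtn3 and Lyz2 were separated among neighbours. The means of Elane and Csf3r stood above that of Cebpa in WT and below it in DKO. In DKO both Elane and Csf3r overlapped Cebpa within their SD.

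The balance among the genes also differed between the genotypes. The 10 genes together took 0.244% to 0.316% of all counts in WT against 0.0151%, 0.106%, 0.0722% and 0.0824% in DKO replicates 1 to 4. Mpo made up 84.8% to 86.9% of the counts of the 10 genes in WT against 61.0%, 76.1%, 74.8% and 75.0% in DKO. There were 9.998 to 12.9 counts of Mpo per count of Prtn3 in WT against 2.83, 4.56, 4.73 and 4.79 in DKO, without overlap. The number of Mpo counts per Ms4a3 count was 297 to 399 in WT against 174, 111, 63.0 and 105 in DKO, again without overlap. Per Cebpa count it was 101 to 139 in WT against 7.27, 41.0, 45.3 and 46.1 in DKO. By contrast, Mpo and Csf3r kept a similar proportion, with 46.5 to 58.3 Mpo counts per Csf3r count in WT against 57.8, 44.0, 49.2 and 79.6 in DKO. For Mpo per Elane the WT libraries lay between 169 and 195 and the DKO libraries at 91.1, 315, 161 and 83.9, on both sides of the WT range. These ratios use the same counts by which the genes were chosen and are descriptions.

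**Figure D4:**
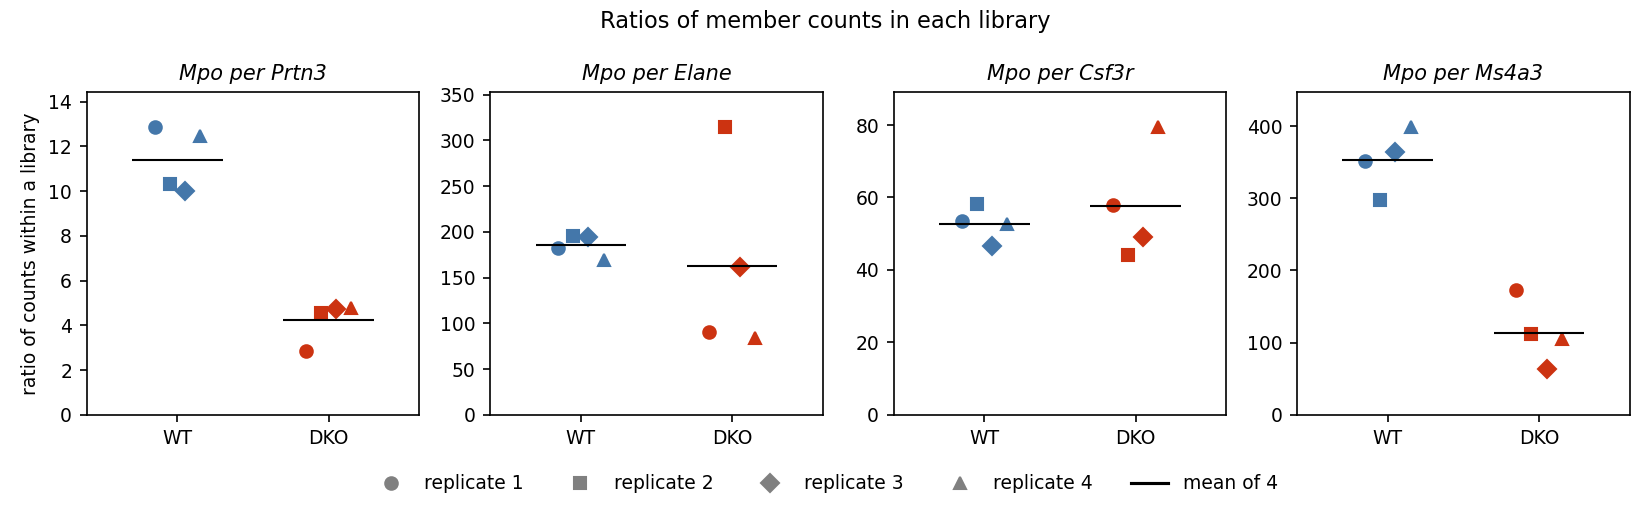
Counts of Mpo per count of Prtn3, Elane, Csf3r and Ms4a3 in each library (points: WT in blue, DKO in red, one symbol per replicate number; line: mean of the 4 libraries), on linear axes from 0. The DKO libraries lie below all WT libraries for Prtn3 (at most 4.79 against at least 9.998) and for Ms4a3 (at most 174 against at least 297), and the genotypes overlap for Elane and Csf3r.

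The correlation among the genes within a genotype depended on DKO replicate 1. After the mean of each genotype was subtracted from log2 normalized counts, the 45 pairs of genes had a median Pearson correlation of 0.89 over the 8 libraries (range 0.11 to 0.99), and without DKO replicate 1 the median was 0.14 (range -0.79 to 0.94). Within the 4 WT libraries alone it was 0.62 (range -0.50 to 0.96). The libraries share their scaling and these correlations are given without a test. Of 12186 genes outside the lists, the 5 whose centred values were most like the mean of the 10 genes were Myo1g, Gapt, Nrros, Gm5111 and Cyth4, with correlations of 0.994 to 0.996 over 8 libraries and of 0.65 to 0.85 without DKO replicate 1. Myo1g, which encodes a myosin of blood cells, lay between 2684 and 2991 normalized counts in WT, against 247, 1060.1, 1106 and 1082 in DKO replicates 1 to 4. DKO replicate 1 was the lowest library for Myo1g too. Since this gene was picked for following the 10 genes, that is no separate observation.

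Other myeloid genes were examined in 6 lists with 73 genes tested. Of these, 14 were called lower and 4 higher in DKO, and these counts were 19 and 3 without DKO replicate 1. The 14 became 8 without WT replicate 2 or WT replicate 4 and 25 by DESeq2. By the adjusted p alone, 24 were lower and 6 higher, where 10.8% and 10.7% of all genes tested were. Lcn2, Cebpb, Klf4 and Socs3 were the 4 called higher, and their DKO libraries were all above WT, as were those of 13.5% of all genes tested. These lists were written with earlier results of these samples known, and their counts are descriptions beside the 2.43% of all genes called lower and 6.19% called higher.

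Among 10 tested genes for other proteins of the primary granule, or for its packing, activation and inhibition, 2 were called lower, 0 higher, and the median log2 fold change was -0.74. Serpinb1a, an inhibitor of the neutrophil serine proteases, fell from 4041 ± 274 to 1279 ± 774 normalized counts (log2 fold change -1.66, SE 0.46, edgeR adjusted p = 0.0322). Rab27a, a GTPase of granule secretion, fell from 1894 ± 211 to 928 ± 352 (-1.03, SE 0.28, adjusted p = 0.0304). Ctsc, the protease that activates the granule serine proteases, passed the adjusted p with a log2 fold change of -0.88 (SE 0.18, edgeR adjusted p = 0.0112) and was not called. Neither were the abundant Vamp8, at 0.29 (SE 0.15), and Ctsd, at -0.36 (SE 0.09), nor Cd63, a membrane protein of granules and lysosomes, at 0.65 (SE 0.12).

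A list of 20 genes for the secondary and tertiary granules also held genes for other proteins, Cxcr2, S100a8 and S100a9 among them. Only 8 of the 20 had enough counts to be tested, at a median of -0.85 on the log2 scale. Chil3, Lrg1, Retnlg, Wfdc21, Itgb2l and Fpr2 had 0 counts in all 8 libraries. Lcn2, the gene for lipocalin 2, which many cell types make in inflammation, had 2.09, 5.16, 19.98 and 21.9 normalized counts in WT against 288, 699, 380 and 1151 in DKO (log2 fold change 5.65, SE 0.73, edgeR adjusted p = 0.00248). Cxcr2, a chemokine receptor of neutrophils, went the other way, from 721 ± 84.7 to 184 ± 60.3 (-1.97, SE 0.25, edgeR adjusted p = 0.00219). Ltf, which encodes lactoferrin, had means of 31.5 ± 14.1 and 5.49 ± 10.97 and was not called.

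Of 16 tested genes of granulocyte and monocyte progenitors, 7 were called lower, 0 higher, and the median log2 fold change was -1.53. Among those called were the Fc receptor gene Fcgr3 (-1.61, SE 0.27, edgeR adjusted p = 0.0056), F13a1 for a coagulation factor (-2.03, SE 0.37), Cd48 (-2.13, SE 0.42), Nkg7 (-1.14, SE 0.32) and the lectin gene Clec12a (-3.06, SE 0.87). The genes of this list with the highest mean over both genotypes were not called, namely Lgals1 at 0.38 (SE 0.12), Gstm1 at -0.19 (SE 0.34) and Plac8 at 0.15 (SE 0.15).

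Among 20 further regulators of myeloid fate, 1 was called lower and 2 higher, and the median log2 fold change was -0.34. Irf8, which directs progenitors to the monocyte branch, had 3023, 3653, 2913 and 3358 normalized counts in WT against 225, 1583, 675 and 1272 in DKO (-1.79, SE 0.47, edgeR adjusted p = 0.0251). Spi1, the gene for PU.1, had 5334, 5097, 5005 and 5982 in WT against 1064, 4665, 3007 and 3159.7 in DKO. Its libraries did not overlap, and its log2 fold change of -0.85 (SE 0.34) was not called, with an edgeR adjusted p of 0.105. Cebpb, the C/EBP factor of inflammatory and emergency responses, rose from 105 ± 17.7 to 323 ± 145 (1.62, SE 0.36, edgeR adjusted p = 0.0134), and Klf4, a factor of monocytes and of many non-blood cells, from 47.4 ± 18.3 to 132 ± 39.2 (1.47, SE 0.41, edgeR adjusted p = 0.0318). The abundant Mef2c (-0.95, SE 0.18) and Myb (-0.54, SE 0.14) passed the adjusted p but not the fold change. Id2 was at 0.59 (SE 0.32) and Gfi1b at -0.09 (SE 0.15), and neither was called.

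Of 13 tested genes for other growth factor receptors, ligands and their feedback, 3 were called lower and 1 higher, with a median of -0.38. Il5ra (-2.64, SE 0.56, edgeR adjusted p = 0.0122), Flt3 (-2.47, SE 0.55, edgeR adjusted p = 0.0137) and Il6ra (-1.86, SE 0.41, edgeR adjusted p = 0.0138) fell. Socs3, a feedback inhibitor of the G-CSF receptor and of other cytokine receptors, rose from 113 ± 23.8 to 330.0 ± 92.5 (1.55, SE 0.28, edgeR adjusted p = 0.00685). Csf3, the gene for G-CSF itself, was too low to be tested, with a mean of 1.52 normalized counts in WT and 0 in DKO. The 6 genes of the phagocyte NADPH oxidase, which feeds myeloperoxidase with its substrate, had a median of -0.90 with 0 called in either direction by edgeR. Of these, Rac2 (-0.88, SE 0.25, edgeR adjusted p = 0.0351) and Cyba (0.48, SE 0.14, edgeR adjusted p = 0.0365) passed the adjusted p in opposite directions.

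**Figure D5:**
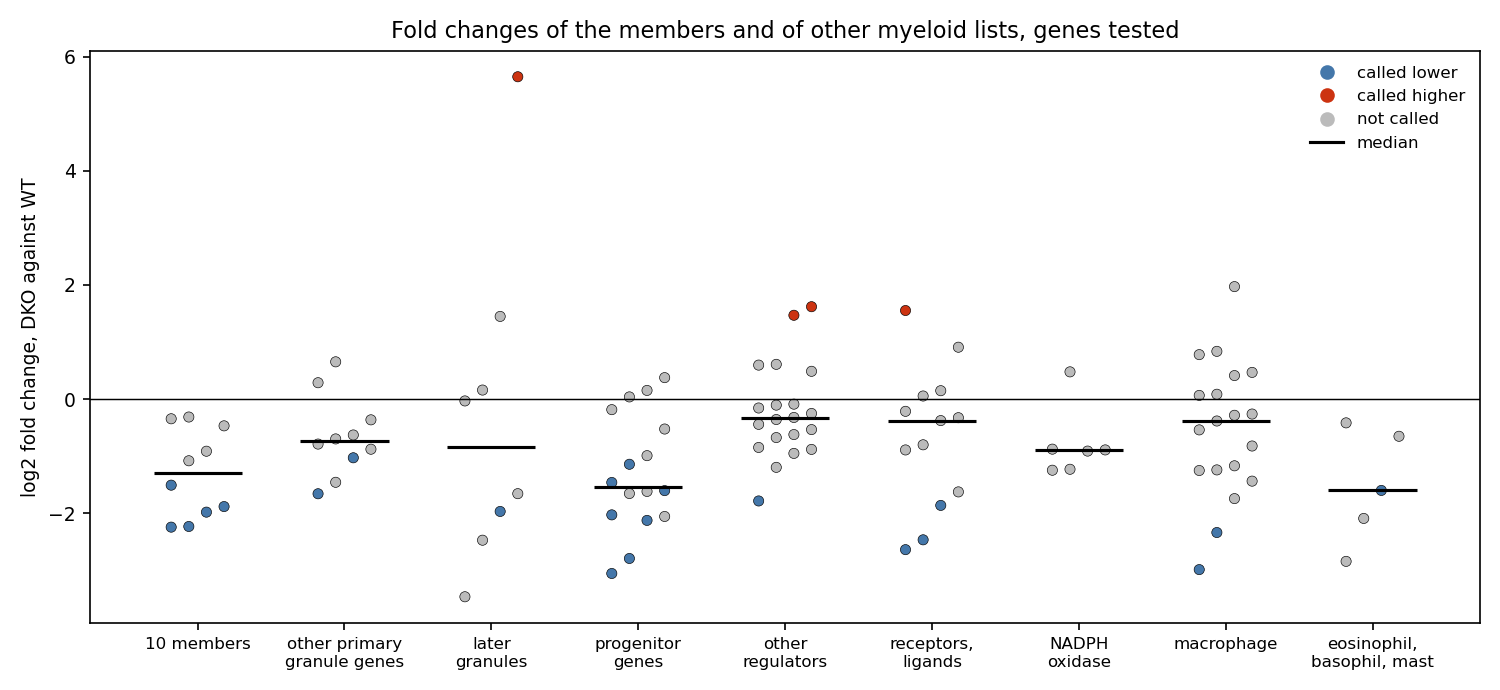
Log2 fold change, DKO against WT, of each gene tested among the 10 genes and in 8 other lists (points: blue, called lower; red, called higher; grey, not called; line: median). The progenitor list has the most genes called lower among these other lists, 7 of 16, and the single highest point is Lcn2 at 5.65.

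Markers of other cells moved in different directions beside these genes. Of the genes for the proteins stained in the sort, Itgam (CD11b) had 528, 549, 322 and 789 normalized counts in WT against 21.0, 173, 74.5 and 40.7 in DKO (-2.82, SE 0.59, edgeR adjusted p = 0.0116), Ptprc, whose CD45R form is stained, was also called lower (-1.67, SE 0.40), and Ly6g and Cd8a had 0 counts in all libraries. Of 19 macrophage markers tested, 2 were called lower (Cx3cr1 at -2.34, SE 0.60, and Adgre1 at -2.99, SE 0.88) and 0 higher, and the list summed to 5238 to 8172 in WT and 2105 to 5697 in DKO. Of 5 eosinophil, basophil and mast cell genes tested, only Cpa3 was called (-1.60, SE 0.47), and Epx, Ear1, Fcer1a and Mcpt4 were at 0 throughout. Of 19 erythroid markers tested 0 were called by edgeR, with 2 higher at an adjusted p under 0.05, and their sum was 79768 to 122822 in WT and 59908 to 146878 in DKO, so the labelled cell type has its markers in both genotypes.

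Mesenchyme markers were higher in DKO, with 10 of 12 called higher, beside 6.19% of all genes tested, and none of the 12 at 0, and their sum was 9958 to 14883 in WT against 56698, 23693, 18703 and 31278 in DKO replicates 1 to 4. DKO replicate 1 was thus highest for this sum and lowest for each of the 10 genes, but not lowest for the sums of all myeloid lists. Of 14 hepatoblast markers 0 were called by edgeR, with 0 at an adjusted p under 0.05, and their sum was 725495 to 983966 in WT and 218199 to 832804 in DKO. Rag2 was called lower among 9 lymphoid markers tested, and Pecam1 and Sox18 among 12 endothelial markers, beside 2.43% of all genes tested. The part of other cell types in the levels of the 10 genes was not tested.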

How the data were processed

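RNAseq of S0 cells was analysed for 4 WT and 4 DKO libraries, grouped by their labels. The authors trimmed 150-bp paired reads with fastp 0.21.0, mapped them to mm10 with HISAT2 2.2.1, removed alignments of low mapping quality and deposited counts per gene, whole numbers from StringTie 1.3.3b and prepDE that are not normalized. The strand setting is not given in the sources used here, so counts of overlapping genes are uncertain. Of 52636 identifiers, 52489 matched GENCODE (GRCm38) without the version. In R 4.3.3, edgeR 4.0.16 was used (filterByExpr, TMM, robust quasi-likelihood test, Benjamini-Hochberg adjustment over 17378 genes, no covariate), and a call needed a log2 fold change beyond 1 with an adjusted p below 0.05. The genes and lists were chosen with earlier results of these data known. The text names the 10 genes, up to 6 called genes with the smallest p and up to 3 abundant uncalled genes per list, the 5 most alike genes (mean of at least 100 normalized counts, pseudocount 1), and checks. Other genes were picked with their values known (Ctsc, Ltf, Spi1, Gfi1b, Csf3, genes at 0 and the neighbours of Elane). Motifs were searched by exact letters in RefSeq windows. On counts simulated for DKO against WT, 173 of 200 genes changed by a log2 fold of 2, or 86.5%, were called among 17155 genes fitted. Of the unchanged genes, 6 were called. The simulation gave both genotypes the same dispersion, 0.15, whereas the 10 genes varied more in DKO than in WT. The share called therefore need not hold for them. No library was a copy of another (chi-square per gene between libraries of a genotype, 18.3 or more). Alternatives were DESeq2 1.42.0, other scalings and filters, omitted libraries, a replicate block, no fold threshold, hemoglobin genes removed, longest transcripts and, chosen after seeing the data, protein-coding genes only and DKO replicate 3 alone. Some genes of the lists are not reported here.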

Additional observations from a re-analysis of the deposited data

Results flagged for a closer look

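In groups of 4 libraries, the highest or lowest value was compared with the range of its group, and 3 of 42 groups had a value whose gap to the next was above Dixon's 95% limit, where chance gives about 1 in 20. All 3 were DKO replicate 1. Mpo made up 61.0% of the counts of the 10 genes in that library and 74.8% to 76.1% in the other DKO libraries. There were 2.83 Mpo counts per Prtn3 count in it and 4.56 to 4.79 in the others. Per Cebpa count there were 7.27 Mpo counts, against 41.0 to 46.1 in the others.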

How the results depend on the processing

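All 10 genes were tested in every setting except that Cebpe and Gfi1 were removed by the stricter filter, which asks for 10 counts or more in each of the 8 libraries. The number called lower was 5 and stayed between 4 and 5 with another scaling, filter, tool or gene set, and ranged from 2 to 5 over the fits that omitted 1 library, with 2 without WT replicate 1 or WT replicate 4 and 3 without WT replicate 2 or DKO replicate 2, 3 or 4. Mpo and Lyz2 were called in all 17 alternatives, Csf3r in 14, Elane in 12 and Ctsg in 7, and no gene was called higher in any of them. The log2 fold change of Ms4a3 ranged from -0.60 to 0.069 over the fits that omitted 1 library, with the 0.069 coming without DKO replicate 1, and was 0.30 with DKO replicate 3 alone. That of Gfi1 ranged from -0.86 to 0.028, with the 0.028 again without DKO replicate 1. The cause was not tested. Of the 6 myeloid lists, 14 genes were called lower, against 25 by DESeq2, 24 without a fold threshold, 25 with DKO replicate 3 alone (an arm of 1 library, assumed to vary like the others) and 8 to 21 with a library left out (8 without WT replicate 2 or WT replicate 4). The 4 called higher became 2 with DKO replicate 3 alone and 3 to 4 with a library left out. With a replicate block, 4 of the 10 genes were called lower, and the 6 lists had 14 called lower and 2 higher. Same-numbered libraries did not deviate together (correlations -0.09, 0.04, -0.02 and -0.01). With 4 libraries per genotype this cannot exclude that some were prepared together, and the labels give no pairing. With the length of the longest transcript, the level per length was 896 for Mpo, 212 for Prtn3 and 4.69 for Ms4a3 in WT and 112 for Prtn3 in DKO.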

Other observations

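Elane and Prtn3 lie together on chromosome 10. Of 9 other genes tested within 50 kb of the pair, 1 was called, E130317F20Rik, which was higher in DKO (log2 fold change 1.005, SE 0.28, edgeR adjusted p = 0.0332). Plppr3, which overlaps the end of the GENCODE model of Prtn3 nearest its start and lies on the opposite strand, had means of 3018 normalized counts in WT and 1675 in DKO (log2 fold change -0.85, SE 0.12, edgeR adjusted p = 0.00292), and without the strand setting reads from the shared part cannot be told apart. Med16, the nearest of the tested genes past Elane, was at 0.03 (SE 0.13). These neighbours were chosen after their values were seen.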
